A study of Mus musculus with 36 samples.

Results

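The dual specificity phosphatases described here are 10 mouse genes whose products switch off mitogen-activated protein (MAP) kinases: Dusp1, Dusp2, Dusp4, Dusp5, Dusp6, Dusp7, Dusp8, Dusp10, Dusp14 and Dusp16. They form a fixed list of named genes and were measured by 16 of the 45101 probe sets on the array. The probe set with the highest mean log2 signal over the 36 arrays stood for each gene, and all 10 genes were among the 12626 genes tested. MAP kinases are activated when an upstream kinase phosphorylates a threonine and a nearby tyrosine, and a dual specificity phosphatase removes both phosphates. Many of these genes are themselves induced by the kinases that their products inactivate, which makes them feedback brakes. Dusp5, Dusp6 and Dusp7 encode phosphatases that prefer the growth-linked kinase ERK, and Dusp8, Dusp10 and Dusp16 encode phosphatases that prefer the stress-linked kinases p38 and JNK. Dusp1, Dusp2 and Dusp4 encode inducible nuclear phosphatases that act on several MAP kinases, and Dusp14 encodes a small atypical family member.

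RNA from the left ventricle of mice on a C57black background was measured on 36 Affymetrix arrays, in groups of 2 or 3 arrays. HRas-v12 is a constitutively active Ras protein, which signals to ERK among other kinases; it had 2 female and 3 male early arrays and 3 late arrays of each sex. MKK3bE, an active form of a kinase upstream of p38, had 2 female early, 2 female late and 3 male late arrays. MKK7D, an active form of a kinase upstream of JNK, had 3 female early and 3 female late arrays. Each transgene was floxed and sat behind the heart muscle alpha myosin heavy chain promoter, and the mice also carried Mer-Cre-Mer, a tamoxifen-activated Cre recombinase, behind the same promoter. The controls were littermates without transgenes, as 3 female and 3 male arrays with no time label for the HRas-v12 and MKK3bE lines, and as 3 female early and 3 female late arrays for the MKK7D line. All groups, controls included, were treated at 12 weeks of age with tamoxifen at 20 mg/kg by abdominal injection, once a day for 3 days. Early hearts were taken 4 to 7 days after the first injection and late hearts 2 to 4 weeks after it. The HRas-v12 and MKK3bE comparisons shared their controls.

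Signals were the deposited MAS5 intensities, and changes are differences of log2(signal + 32), which understate the change of dim genes. A change was called when its Benjamini-Hochberg adjusted p over all genes tested, from limma, was under 0.05. Nothing in the labels says that replicate arrays came from different mice, so the p-values cover the spread between arrays, and the small number of arrays limits the precision. In whole ventricle, fewer cells of a type and less RNA per cell cannot be told apart. The 8 heart muscle markers had a summed signal of 801157 to 1653263 over the 36 arrays, and the 7 T and B cell markers on the array one of 1244 to 5550.

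Mer-Cre-Mer carries parts of the mouse estrogen receptor, so Esr1 signal served as a check of the labels. Esr1 was above the highest shared control, 7943, in 21 of the 24 transgenic arrays, where it ran between 12437 and 155949. The control at 7943, female replicate 2, stood apart from the other 5 shared controls, which had 294 to 832. Esr1 was under 7943 in 3 arrays labelled HRas-v12: 688 in female early replicate 3, 2915 in male late replicate 1 and 1327 in male late replicate 3, of which both males were above those 5 controls. MKK7D control early replicates 1 and 2 had 7288 and 3506, against 294 in early replicate 3. It was high in 2 arrays labelled MKK7D control, at 106402 in late replicate 8 and 91291 in late replicate 9. MKK7D control early replicate 1, labelled female, had more Eif2s3y, a Y-linked gene (6018), than Xist (2316). Some of the phosphatase changes that rest on these 6 arrays are also given without them. The other phosphatase changes are not. Counts and gene changes of the marker and pathway lists are given only with these arrays included. Without these arrays the female early HRas-v12 group, the male late HRas-v12 group and the late MKK7D control group hold 1 array each. As in every fit here, the groups shared an estimate of the spread for each gene. The groups with 1 array added nothing to that estimate.

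The promoters of 9 of the 10 genes were found in the RefSeq promoter table of build GRCm38.p6, which gives 250 bases before and 50 bases after the gene start. The 4 printed here belong to Dusp5 and Dusp6, which rose in early HRas-v12 hearts, and to Dusp1 and Dusp8, which fell there. Dusp5 is at chr19:53528895-53529194 on the plus strand, Dusp6 at chr10:99262981-99263280 on the plus strand, Dusp1 at chr17:26508423-26508722 on the minus strand and Dusp8 at chr7:142095235-142095534 on the minus strand. Capitals mark the cAMP response element, TGACGTCA, its shorter core TGACGT on either strand, and the CArG box, the motif bound by serum response factor.
Dusp5: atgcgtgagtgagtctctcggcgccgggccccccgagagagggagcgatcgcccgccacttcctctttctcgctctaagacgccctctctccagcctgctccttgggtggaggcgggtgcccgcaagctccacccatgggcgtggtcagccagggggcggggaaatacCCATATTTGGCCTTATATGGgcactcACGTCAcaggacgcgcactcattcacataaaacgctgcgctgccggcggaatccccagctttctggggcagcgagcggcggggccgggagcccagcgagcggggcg
Dusp6: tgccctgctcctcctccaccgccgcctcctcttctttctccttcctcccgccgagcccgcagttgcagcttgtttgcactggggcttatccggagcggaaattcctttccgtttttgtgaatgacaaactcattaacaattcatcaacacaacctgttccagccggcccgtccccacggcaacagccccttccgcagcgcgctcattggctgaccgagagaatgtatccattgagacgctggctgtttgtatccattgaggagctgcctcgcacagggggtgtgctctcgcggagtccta
Dusp1: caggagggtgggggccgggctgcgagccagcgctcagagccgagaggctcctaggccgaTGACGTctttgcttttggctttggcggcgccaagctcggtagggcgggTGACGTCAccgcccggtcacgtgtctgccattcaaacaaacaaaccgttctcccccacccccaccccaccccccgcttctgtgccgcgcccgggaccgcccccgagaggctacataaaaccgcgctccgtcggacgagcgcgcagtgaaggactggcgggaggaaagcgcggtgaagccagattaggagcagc
Dusp8: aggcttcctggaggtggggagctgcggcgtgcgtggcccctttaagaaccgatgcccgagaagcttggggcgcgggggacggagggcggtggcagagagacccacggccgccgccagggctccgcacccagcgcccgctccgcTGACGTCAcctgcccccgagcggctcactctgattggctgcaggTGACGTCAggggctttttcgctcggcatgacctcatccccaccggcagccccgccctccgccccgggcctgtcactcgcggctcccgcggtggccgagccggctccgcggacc
The Dusp5 window held 2 adjoining CArG boxes, starting 82 and 72 bases before the gene start of the table, and 1 core of the cAMP response element, and the Dusp6 window held none of the motifs searched. A CArG box was found in 1.63% of the 32851 promoters in the table and in no other of the 9 windows. The full cAMP response element, found in 1.79% of all promoters, was present once in Dusp1, starting 143 bases before the gene start, and at 2 positions in Dusp8, starting 107 and 63 bases before it. The core was found in 7.51% of all promoters, and among the 9 in Dusp1, Dusp5 and Dusp8, where each full element also counts as a core. AP-1 sites (TGANTCA) were in 7.81% and Ets sites (CCGGAAG) in 8.86% of all promoters, with both strands searched, and in none of the 9. Sp1 sites (GGGCGG, both strands) were in 8 of the 9 windows, Dusp6 being without one, and in 35.7% of all promoters. That motif is all G and C, and the 9 windows were 57.3% (Dusp6) to 78.7% (Dusp7) G and C, against a median of 52.7% over all promoters. The part of base composition in the motif counts was not tested. The start used for Dusp8 lies inside the longest annotated span of that gene, which reaches 142095907. The same holds for Dusp7, Dusp14 and Dusp16, and the Dusp16 window ends at 134792878 while its gene reaches 134807063. These letters describe the windows and say nothing of binding.

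In early HRas-v12 hearts, 2 of the 3 ERK-preferring genes rose and 2 of the 3 p38- and JNK-preferring genes fell. Dusp5 rose most, 13.9-fold, and Dusp6 rose 2.65-fold, while Dusp1 and Dusp8 were each 1.77-fold lower and Dusp16 was 1.31-fold lower. The 5 calls among 10 genes stand beside 33.8% of all genes called in this comparison, of which 15.1% of all genes were higher (2 of the 10 here) and 18.7% lower (3 of the 10 here). The median change of the 10 genes was 0.18, against -0.04 over all genes tested.

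Dusp5 encodes a nuclear phosphatase that dephosphorylates ERK and holds it in the nucleus. Its signal in early HRas-v12 hearts was 19833, 14912 and 16107 in males and 19153 and 571 in females. In controls it was 1243, 441 and 385 in males and 182, 1051 and 412 in females. The groups overlapped only through female early replicate 3, the array with low Esr1, and the other 4 arrays lay far above every control. On the log2 scale Dusp5 changed by 3.80 (SE 0.80, n = 5 against 6, limma adjusted p = 0.000829), and without the 6 arrays above it was 5.05 (SE 0.57, adjusted p = 3e-07).

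Dusp6 encodes the cytoplasmic phosphatase that is the classical feedback inhibitor of ERK. Early HRas-v12 males had signals of 14111, 13531 and 16184, and females had 13257 and 3004. Control males had 2788, 3685 and 5735 and control females 3555, 3203 and 3231. Again 4 of 5 HRas-v12 arrays were above every control, and female replicate 3 was within the control range. For Dusp6 the log2 change was 1.41 (SE 0.32, limma adjusted p = 0.00149), 1.94 without the 6 arrays, and 0.88 (adjusted p = 0.062) without female early replicate 1, which leaves replicate 3 as the only female. Dusp7, whose product is a cytoplasmic relative of the Dusp6 phosphatase, had 7632 to 10634 in early HRas-v12 hearts, median 9707, against 5336 to 9239, median 8453, in controls, a log2 change of 0.26 (95% interval -0.21 to 0.74). The other Dusp7 probe sets changed by 0.07 (SE 0.14) and 0.51 (SE 0.17).

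**Figure D1:**
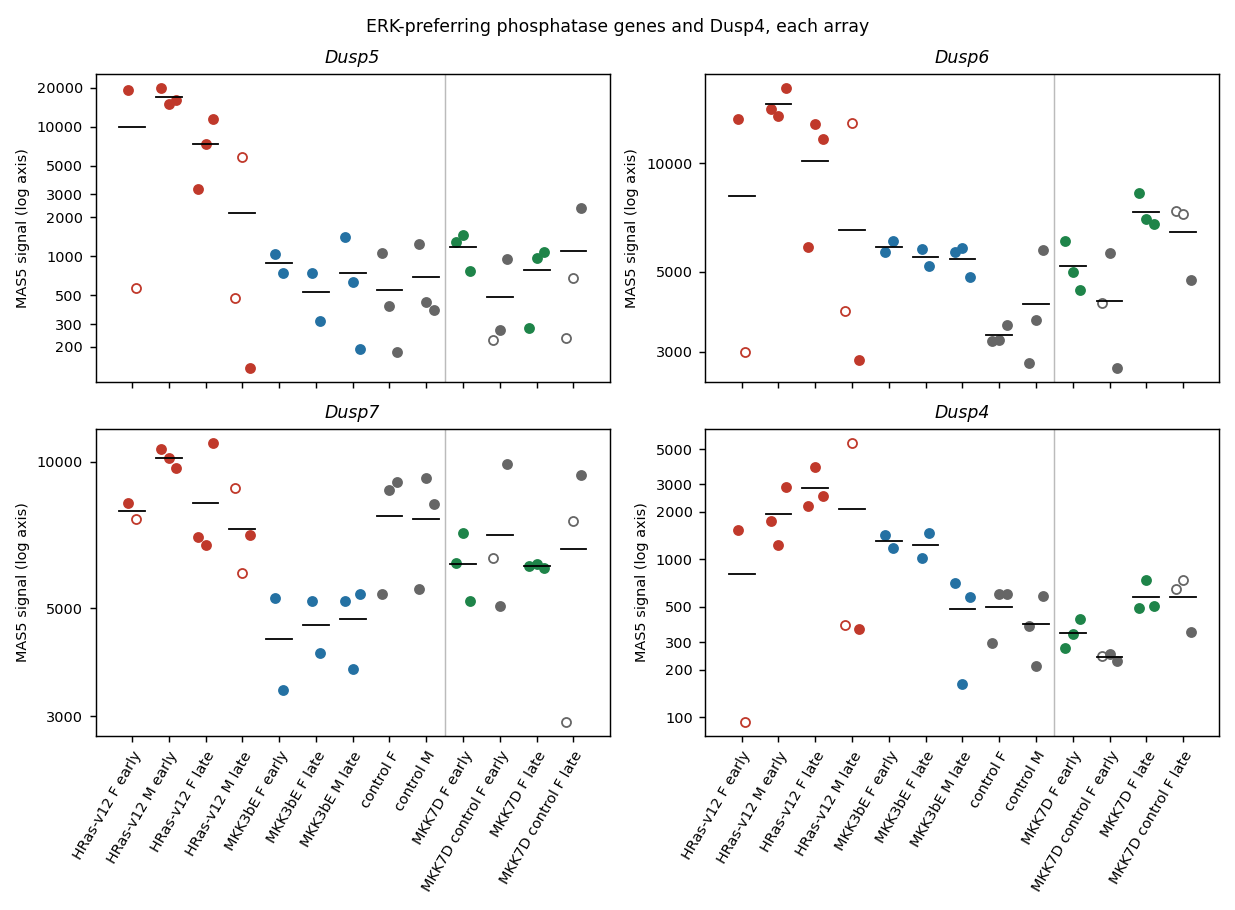
Signal of Dusp5, Dusp6, Dusp7 and Dusp4 on each array (log axis) by group, with transgenic groups left of their controls. Lines are group means, open circles are the 6 arrays whose check genes went against the label, F is female and M is male. Dusp5 reached 14912 to 19833 in 4 of 5 early HRas-v12 arrays, against 182 to 1243 in the shared controls.

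Dusp4, an inducible nuclear phosphatase gene, had early HRas-v12 signals of 1746, 1239 and 2873 in males and 1528 and 93 in females. In controls it had 380, 211 and 585 in males and 607, 296 and 607 in females. All arrays but female replicate 3 stood above every control, and that array stood below every control. The log2 change of 1.02 (SE 0.56, limma adjusted p = 0.164) was not called. Without that array it was 1.93 (adjusted p = 0.00685).

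Dusp1 encodes the nuclear phosphatase that is induced by stress and mitogens and acts on p38 and JNK most strongly. Its signal was 6716, 8176 and 6301 in early HRas-v12 males and 15560 and 20821 in early HRas-v12 females. Control males had 17295, 18980 and 22073 and control females 21974, 22612 and 17454. The 3 males and female replicate 1 lay below every control, and female replicate 3 lay among them. Dusp1 changed by -0.82 on that scale (SE 0.13, limma adjusted p = 9.21e-05), and by -0.93 without the 6 arrays.

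Dusp8, whose product prefers JNK and p38, was the member whose groups did not overlap. Early HRas-v12 signals were 2408, 3373 and 3391 in males and 4871 and 3448 in females. Control signals were 8062, 6002 and 6944 in males and 6620, 5052 and 5264 in females. All 5 HRas-v12 arrays, female replicate 3 included, lay below the lowest control. Its log2 change was -0.82 (SE 0.20, limma adjusted p = 0.00307), and -0.70 without the 6 arrays. The other Dusp8 probe sets changed by -0.64 (SE 0.25) and -1.80 (SE 0.41). The share of all genes whose groups did not overlap was not counted, in this or any other comparison. Separate groups are therefore given as a description only.

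Dusp16, another JNK- and p38-directed phosphatase gene, had 3458, 3780 and 4456 in early HRas-v12 males and 3916 and 5341 in females. Control males had 4874, 5109 and 4471 and control females 7407, 6801 and 5049. Each male was below each control male, but over both sexes the ranges met. It changed by -0.39 (SE 0.14, limma adjusted p = 0.0279). The call was lost without female early replicate 1 (-0.28, adjusted p = 0.235), male early replicate 1 (-0.35), control male replicate 2 (-0.37), control female replicate 1 (-0.36) or control female replicate 4 (-0.33). It was also lost with only the groups compared in the fit (adjusted p = 0.0549), and kept without the 6 arrays (-0.50, adjusted p = 0.00966). A dim second probe set of Dusp16, under the filter on low signal, changed by 0.81 (SE 0.45), the opposite sign. Dusp10, the third gene of that preference, had 1155 to 2265, median 1172, against 1244 to 2378, median 2020, in controls (log2 change -0.26, 95% interval -0.67 to 0.15).

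Dusp2, best known from activated immune cells, and Dusp14 were not called in early HRas-v12 hearts. Dusp2 had 618 to 1178, median 855, against 574 to 1087, median 834, in controls. Dusp14 had 321 to 732, median 512, against 224 to 684, median 435, in controls, and its mean log2 signal of 8.88 lay close to the filter at 8.80. Their log2 changes were 0.13 (95% interval -0.27 to 0.53) and 0.23 (95% interval -0.43 to 0.89).

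**Figure D2:**
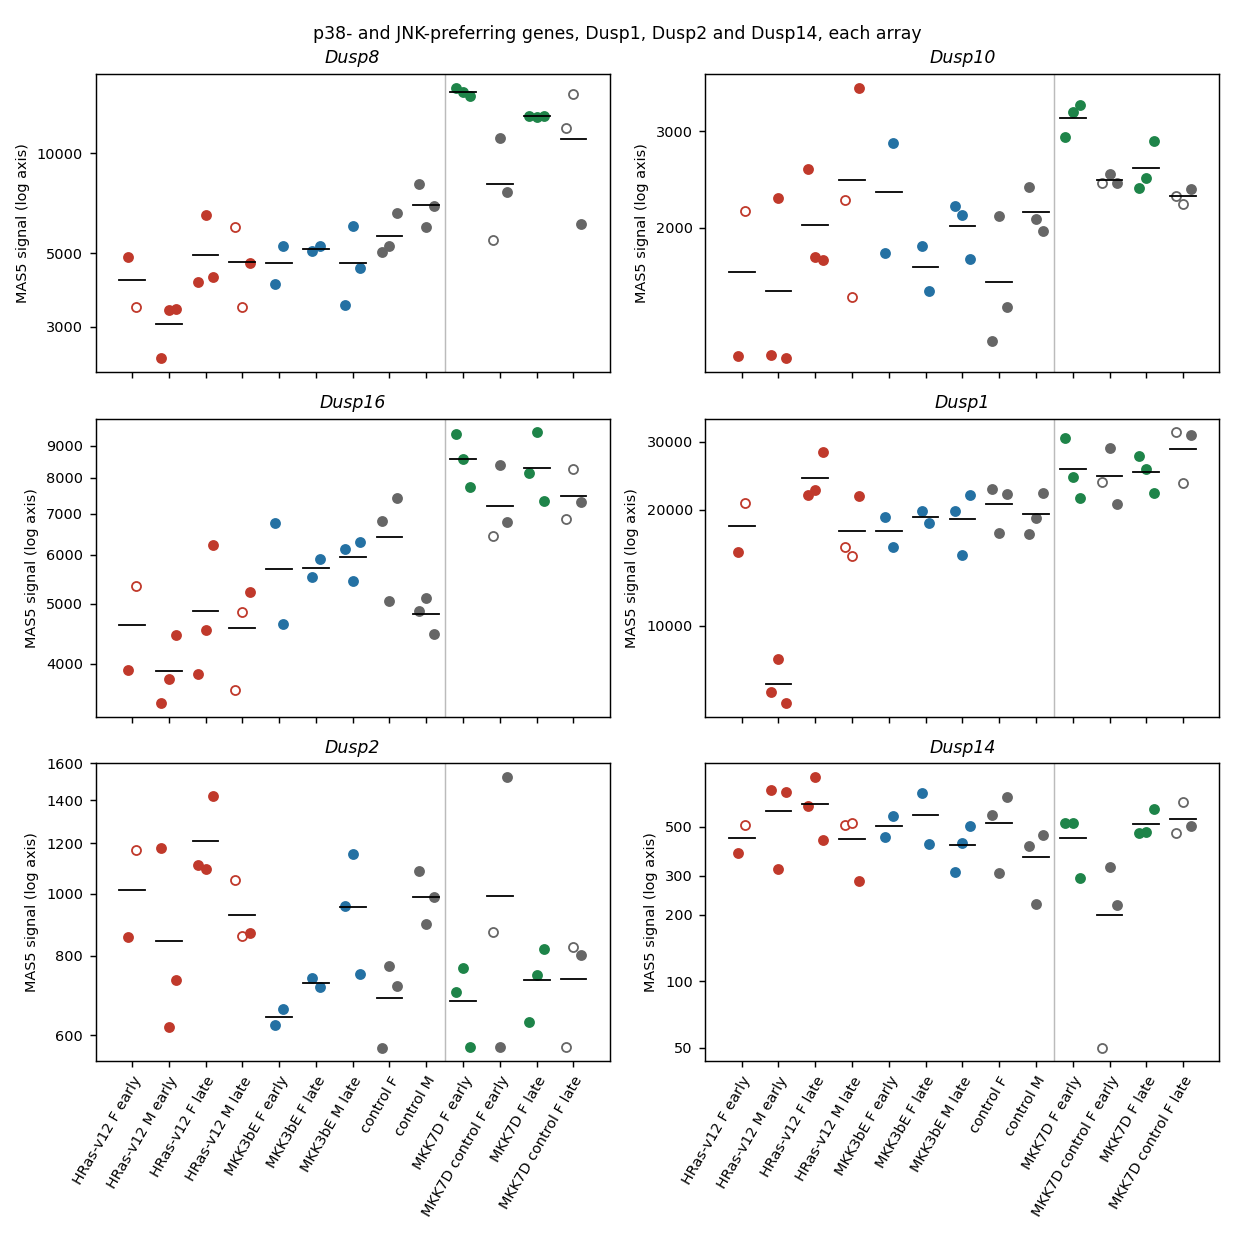
Signal of Dusp8, Dusp10, Dusp16, Dusp1, Dusp2 and Dusp14 on each array (log axis) by group, with transgenic groups left of their controls; lines are group means and open circles the 6 arrays against their label. Dusp8 ran from 2408 to 4871 in early HRas-v12 arrays, against 5052 to 8062 in the shared controls, and from 14835 to 15772 in early MKK7D arrays, against 5460 to 11111 in theirs.

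Marker genes moved in the same early comparison. All 8 heart muscle markers were called lower, with summed signals of 801157 to 1167331 in early HRas-v12 hearts, against 1230974 to 1653263 in controls. Of 8 macrophage markers 6 were called higher, with sums of 47587 to 173939 against 49675 to 76383 in controls. Of 8 fibroblast markers 5 were called higher (171275 to 552228, against 169726 to 237546 in controls), and of 8 endothelial markers 6 were called lower (27428 to 58798, against 47301 to 63451 in controls). The lowest macrophage and fibroblast sums were those of female replicate 3. The part of these cell types in the phosphatase changes was not tested.

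Other genes of the pathway were read from lists. Of 16 ERK feedback and target genes tested, 12 rose and none fell, with a median log2 change of 1.82, against -0.04 over all genes. Among them, Spred1, an inhibitor of Ras signalling, changed by 2.18 (SE 0.37), and Hbegf, a growth factor of the EGF family, by 2.76 (SE 0.45). Of 12 JNK and p38 target genes 5 rose and 2 fell, with Gadd45g at 1.67 (SE 0.33) and Jun, the transcription factor that JNK phosphorylates, at -0.85 (SE 0.18). Of 7 MAP kinase genes, Mapk10, which encodes a JNK, fell by 1.84 (SE 0.32) on the log2 scale and Mapk7, which encodes ERK5, rose by 0.98 (SE 0.20). Of 6 MAP kinase kinase genes 2 rose and 2 fell, with Map2k6, upstream of p38, at -1.92 (SE 0.39). Of 14 other phosphatases tested, Dusp22 rose (0.51, SE 0.11) and Ppm1a (-0.39), Ppm1b (-0.54) and Ptprr (-0.53) fell. All of these named genes had limma adjusted p-values of 0.0272 or less.

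In late HRas-v12 hearts, Dusp4 rose 3.67-fold and Dusp6 rose 1.96-fold, and no member fell. These 2 calls among 10 genes stand beside 9.52% of all genes called, 4.86% higher (2 of the 10 here) and 4.66% lower (0 of the 10 here). The late arrays were split, and neither sex nor Esr1 matched the split in every array. Dusp4, Dusp5 and Dusp6 were high in all 3 females and in male replicate 3, and near control levels in male replicates 1 and 4.

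Dusp4 had 2190, 3841 and 2530 in late HRas-v12 females and 386, 5500 and 362 in late males, against 211 to 607, median 482, in controls. Male replicate 3, with an Esr1 signal of 1327, had the highest Dusp4 of the series, and male replicate 4, with the highest Esr1 of the series at 155949, was within the control range. For Dusp4 the log2 change was 1.87 (SE 0.52, limma adjusted p = 0.0278). It was not called without male late replicate 3 (1.25, adjusted p = 0.117) or without the 6 arrays (1.23, adjusted p = 0.1). The call was also lost without female late replicate 3 (1.76), control male replicate 1 (1.89), control male replicate 2 (1.70) or control female replicate 1 (1.71), with adjusted p-values of 0.0525 to 0.0826.

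Dusp6 showed the same division, with 5875, 12863 and 11667 in late HRas-v12 females and 3883, 12909 and 2848 in late males, against 2788 to 5735, median 3393, in controls. Dusp6 changed by 0.97 (SE 0.30, limma adjusted p = 0.0405). It was not called without male late replicate 3 (0.65, adjusted p = 0.18) or without the 6 arrays (0.54, adjusted p = 0.249). Nor was it called without female late replicate 3 (0.87) or 4 (0.90), control male replicate 1 (0.85) or 2 (0.95), or control female replicate 1 (0.96), 2 (0.96) or 4 (0.99), with adjusted p-values of 0.0574 to 0.118. Dusp5 had 3284, 7318 and 11471 in late females and 473, 5834 and 138 in late males, against 182 to 1243, median 426, in controls. Its log2 change of 2.07 (SE 0.75, limma adjusted p = 0.0746) was not called, and was 2.63 (adjusted p = 0.0163) without male replicate 4 and 0.95 (SE 0.57, adjusted p = 0.458) without the 6 arrays. With only the groups compared in the fit, neither Dusp4 (adjusted p = 0.131) nor Dusp6 (adjusted p = 0.152) was called late.

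Dusp1 was on average close to the controls late, with a wider range, at 15135 to 28315, median 21806, in late HRas-v12 hearts, against 17295 to 22612, median 20477, in controls (log2 change 0.04, 95% interval -0.22 to 0.29). Dusp8 had 4093, 6535 and 4227 in late females and 6012, 3443 and 4683 in late males, against 5052 to 8062 in controls, and 4 of 6 arrays were below every control. Its log2 change of -0.40 (SE 0.19, limma adjusted p = 0.167) was not called. The late changes of Dusp2, Dusp7, Dusp10, Dusp14 and Dusp16 lay between -0.25 and 0.35 by their brightest probe sets, and none was called. The other Dusp7 probe sets changed by 0.30 (SE 0.13) and 0.44 (SE 0.16). The second probe set of Dusp10 changed by -0.70 (SE 0.42), and the dim one of Dusp16 by 1.03 (SE 0.42), each opposite in sign to the brightest.

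The same arrays that were high in Dusp4, Dusp5 and Dusp6 were high in markers of other cells. Summed macrophage markers were 87012 to 126714 in late females and 229824 in male replicate 3, but 55853 and 42458 in male replicates 1 and 4, against 49675 to 76383 in controls. Summed fibroblast markers were 348755 to 563262 in late females and 395514 in male replicate 3, but 167106 and 182266 in male replicates 1 and 4, against 169726 to 237546 in controls. Summed heart muscle markers ran the other way, at 923334 to 1127580 in late females and 864239 in male replicate 3, but 1255183 and 1224550 in male replicates 1 and 4, against 1230974 to 1653263 in controls. Of the 8 heart muscle markers 6 were called lower late and none higher (median -0.38). Of 8 fibroblast markers 3 were called higher, and 1 of 8 macrophage markers, C1qb (1.04, SE 0.32). Of 8 endothelial and 6 smooth muscle markers 1 each was called lower, Kdr (-0.57) and Rgs5 (-0.76). The part of these cells in the late signals was not tested. Of 16 ERK feedback and target genes 8 rose late and none fell (median 1.18), with Spred1 at 1.60 (SE 0.35), Spry4, an inhibitor of receptor signalling, at 1.46 (SE 0.35) and Egr3 at 2.27 (SE 0.58). None of 12 JNK and p38 target genes was called. Of the other lists, Mapk7 rose (0.74) and Map2k2 (-0.45), Ppp2ca (-0.31) and Ppm1b (-0.46) fell.

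**Figure D3:**
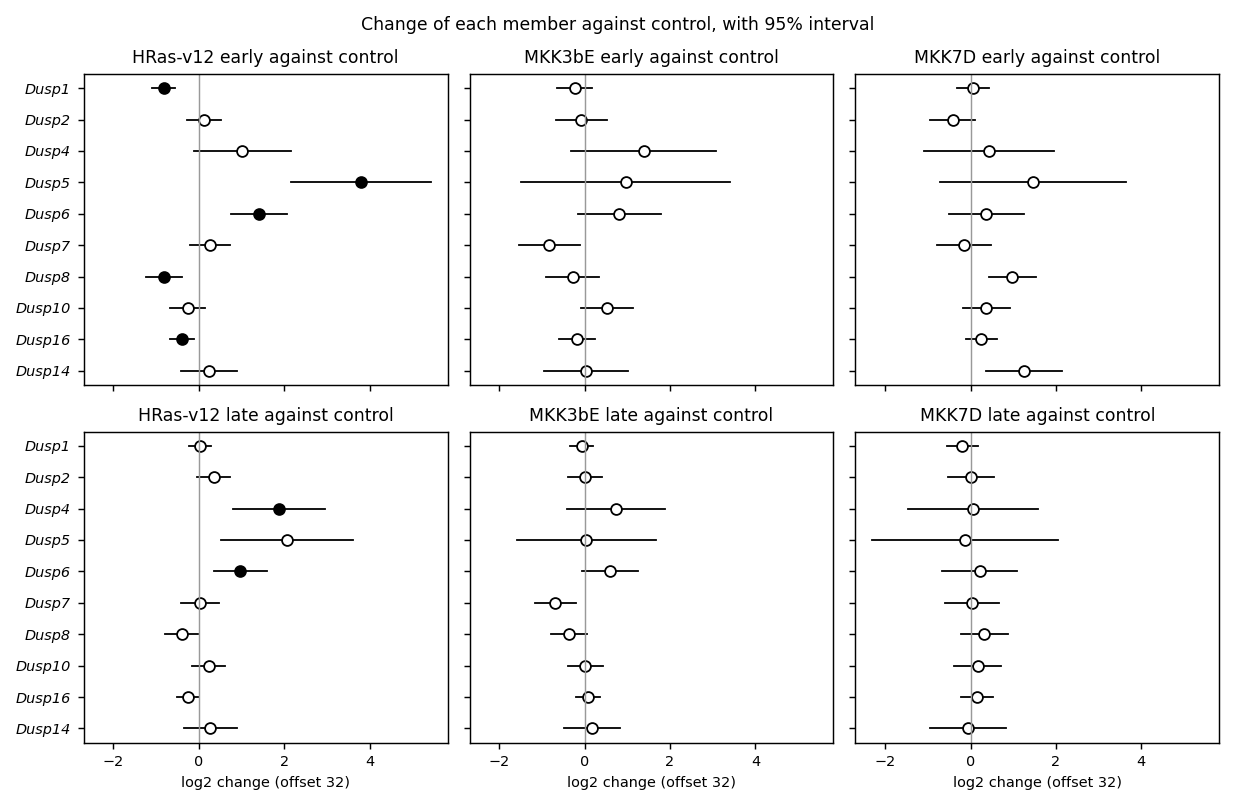
Log2 change of each of the 10 genes against control, with its 95% interval, in the 3 lines at the early (top) and late (bottom) time; filled circles passed the limma threshold. Filled circles appear only in the HRas-v12 panels, with Dusp5 at 3.80 and Dusp1 at -0.82 early and Dusp4 at 1.87 late.

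Between the times, Dusp1 was the single member that differed in HRas-v12 hearts, beside 11.6% of all genes. Averaged over the sexes, it was 1.82-fold higher in late than in early HRas-v12 hearts, with a log2 difference of 0.86 (SE 0.13, limma adjusted p = 0.000228). Males had 6301 to 8176 early and 15135 to 21724 late, and females 15560 and 20821 early and 21889 to 28315 late. Mean log2 signals went from 12.78 to 14.09 in males and from 14.14 to 14.56 in females. Whether the sexes differed in this was not tested. Dusp5 was lower late by point estimate (log2 difference -1.73, SE 0.80, adjusted p = 0.162). Without female early replicate 3 that difference was -2.98 (adjusted p = 0.0109), without male late replicate 3 it was -2.45 (adjusted p = 0.017), and without the 6 arrays it was -4.09 (adjusted p = 9.28e-05). Dusp6 and Dusp10 were called in those same settings, at -1.40 and 1.02 without the 6 arrays, and Dusp10 also without male early replicate 2 (0.64, adjusted p = 0.0315). Between times, 0 of the 10 genes differed in MKK3bE females, beside 0.00792% of all genes, and 0 in the MKK7D change, beside 0.0158%. The HRas-v12 and MKK3bE comparisons set late against early transgenic arrays with no control. The MKK7D comparison subtracts the controls of each time, so the 3 are not alike.

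In MKK3bE hearts none of the 10 genes was called early, beside 6.26% of all genes, or late, beside 10.4%. The lowest adjusted p was that of Dusp7. Its signals were 5255 and 3390 in early MKK3bE females, against 9089, 5336 and 8736 in control females. Late, they were 5183 and 4042 in MKK3bE females and 5181, 3751 and 5343 in MKK3bE males, against 5478, 9239 and 8170 in control males. Every MKK3bE array lay under 5478, while 1 control, a female with 5336, reached into their range. The log2 changes were -0.83 (SE 0.35, limma adjusted p = 0.146) early and -0.69 (SE 0.23, adjusted p = 0.0547) late. Without the 6 arrays, none of which belongs to this comparison and which alter only the shared estimate of the spread, the adjusted p was 0.0463 early and 0.0113 late. The late change was also called without control male replicate 1 (-0.80, adjusted p = 0.0409) and without control female replicate 1 (-0.81, adjusted p = 0.0354). The probe set used shares probes with other transcripts by its design name, and the other Dusp7 probe sets changed by -0.78 (SE 0.20) and -0.22 (SE 0.25) early and by -0.43 (SE 0.14) and -0.19 (SE 0.17) late.

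Dusp6 was higher than all control females in both early MKK3bE arrays, at 5659 and 6074 against 3203 to 3555, a log2 change of 0.81 (SE 0.47, limma adjusted p = 0.309). Dusp4 likewise had 1433 and 1185 in early MKK3bE females, against 296 to 607 in control females (1.38, SE 0.83, limma adjusted p = 0.323). Groups this small can separate without a change. Late, Dusp6 was 4825 to 5833 in MKK3bE hearts, median 5662, against 2788 to 5735, median 3393, in controls (0.59, SE 0.32, adjusted p = 0.236). Dusp5 had 740 and 1046 early and 194 to 1416 late, against 182 to 1243 in controls, and only the highest late array, a male, was above them. The intervals of Dusp4 and Dusp5 were wide, at -0.32 to 3.08 and -1.48 to 3.40 early, so changes of several fold could not be told from none. Without the 6 arrays, which are outside this comparison, Dusp4 was called early (adjusted p = 0.0487) and Dusp6 late (adjusted p = 0.0318). With only the groups compared in the fit, Dusp6 was called early (adjusted p = 0.0149) and late (adjusted p = 0.0198), and Dusp7 late (adjusted p = 0.0188). By their brightest probe sets, Dusp1, Dusp2, Dusp8, Dusp10, Dusp14 and Dusp16 had changes between -0.36 and 0.53 at both times. The other Dusp8 probe sets disagreed in sign, at -1.37 (SE 0.37) and 0.75 (SE 0.61) early and -0.59 (SE 0.25) and 0.40 (SE 0.41) late. The dim second probe set of Dusp16 changed by 1.44 (SE 0.67) early and 1.19 (SE 0.45) late, and that of Dusp10 by 0.05 and -0.40.

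Some kinases around them changed in MKK3bE hearts. Of 7 MAP kinase genes 1 rose and 1 fell early, and 1 rose and 2 fell late. Of 6 MAP kinase kinase genes 1 fell at each time, Map2k6, and none rose. Mapk14, which encodes the main p38 kinase, had a log2 change of -0.93 (SE 0.15, limma adjusted p = 0.000685) early and -0.82 (SE 0.10, adjusted p = 1.65e-05) late. Map2k6, whose product is another kinase upstream of p38, had -2.18 (SE 0.58) and -2.52 (SE 0.39), while Mapk12, another p38 gene, had 0.83 (SE 0.18) and 0.61 (SE 0.12). Late, Mapk10 also fell (-1.18, SE 0.32), and none of 14 other phosphatases was called at either time. Of 12 JNK and p38 target genes 1 rose early, Hspb1 (0.72, SE 0.22), and 1 late, Gadd45b (0.96, SE 0.24). Of 16 ERK feedback and target genes none was called early, and 3 rose late: Spry1 (0.91), Egr3 (1.94) and Egr2 (1.94). Of 8 fibroblast markers 4 were called higher at each time, with sums of 432679 to 498999 early and 258761 to 374210 late, against 169726 to 237546 in controls, and their part in these changes was not tested.

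In early MKK7D hearts none of the 10 genes was called, beside 0.135% of all genes. Dusp8 came closest, with signals of 15772, 15280 and 14835 in early MKK7D hearts, against 5460, 11111 and 7625 in their controls. The groups did not overlap, which groups this small can do without a change, and 15772 and 15280 were the highest Dusp8 signals of the series. The MKK7D controls also had higher mean Dusp8 signals than the shared control females, at 8066 early and 11024 late against 5645, with overlapping ranges. The log2 change was 0.98 (SE 0.27, limma adjusted p = 0.112). It was called without control replicate 2 (1.24, adjusted p = 0.036) and was 0.73 (adjusted p = 0.127) without the 6 arrays, which takes out control replicate 1. With only the groups compared in the fit the adjusted p was 0.0385. The other Dusp8 probe sets changed by 0.29 (SE 0.34) and 0.66 (SE 0.55). None of the cell type markers was called in the MKK7D line at either time. Early, summed macrophage markers were 42758 to 53103 in MKK7D hearts, against 57300 to 73726 in their controls. Summed endothelial markers were 48954 to 51722 in early MKK7D hearts, against 56544 to 67075 in their controls, so both sums separated the same arrays as Dusp8, and their part in its signal was not tested.

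Dusp14 had 522, 522 and 294 in early MKK7D hearts, against 50, 328 and 222 in their controls, a log2 change of 1.25 (SE 0.43, limma adjusted p = 0.244). The control at 50 was replicate 1, and without the 6 arrays the change was 0.62 (adjusted p = 0.591). Dusp10 had 2930, 3250 and 3351 in early MKK7D hearts, all above 2414, 2511 and 2412 in their controls (0.37, SE 0.27, adjusted p = 0.654). Dusp5 had 1291, 1470 and 767, against 226, 272 and 949 (1.46, 95% interval -0.73 to 3.64). Dusp1, Dusp2, Dusp4, Dusp6, Dusp7 and Dusp16 changed by -0.42 to 0.44. Among them Dusp4, a dim gene, had 276 to 421 in early MKK7D hearts, all above 228 to 253 in their controls.

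In late MKK7D hearts limma called 0 of the 10 genes and 0% of all genes, with 643 genes at an unadjusted p under 0.05, none of the 10 among them. Dusp8 was 12911, 12879 and 12933 in late MKK7D hearts, against 11918, 15049 and 6106 in late controls. The controls at 11918 and 15049 were replicates 8 and 9, the arrays with transgenic-like Esr1, and the control at 6106 was replicate 10, whose Esr1 was 953. Dusp8 changed by 0.32 (SE 0.27, limma adjusted p = 0.999) with all arrays, and 1.08 (SE 0.28, adjusted p = 0.0329) without the 6 arrays, with 1 control left. Summed fibroblast markers were 350004 to 363418 in late MKK7D hearts, against 395428 and 451617 in control replicates 8 and 9 and 177137 in control replicate 10, and their part in this change was not tested. Dusp10 had 2366 to 2874 in late MKK7D hearts, all above 2211 to 2350 in late controls (0.16, SE 0.27), and was not called. In the MKK7D line none of the pathway lists had a gene called at either time.

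Differences between the lines were tested directly. Early, the HRas-v12 change minus the MKK7D change was called for 2 of the 10 genes, beside 4.65% of all genes. For Dusp8 it was -1.80 (SE 0.34, limma adjusted p = 0.00517), with signals of 2408 to 4871 in HRas-v12 hearts and 14835 to 15772 in MKK7D hearts, each read against its own controls. With the second brightest Dusp8 probe set the difference was -0.93 (adjusted p = 0.202). For Dusp1 it was -0.88 (SE 0.22, limma adjusted p = 0.0251), which was not called without MKK7D control early replicate 1 (-0.87) or 3 (-0.77), MKK7D early replicate 5 (-0.74) or HRas-v12 female early replicate 1 (-0.78), with adjusted p-values of 0.0668 to 0.0911. Without HRas-v12 female early replicate 3, Dusp6 (1.57, adjusted p = 0.0312) and Dusp16 (-0.76, adjusted p = 0.0353) were called too. Without the 6 arrays, Dusp5 (3.95, adjusted p = 0.00618) and Dusp6 (1.55, adjusted p = 0.00627) joined them. The HRas-v12 changes here average both sexes and the MKK7D changes come from females.

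The HRas-v12 change minus the MKK3bE change was called for 0 of the 10 genes early, beside 4.02% of all genes, and 0 late, beside 3.95%. Early, the difference was 2.84 for Dusp5 (95% interval 0.34 to 5.34, limma adjusted p = 0.219), 1.09 for Dusp7 (0.36 to 1.81, adjusted p = 0.0807) and 0.60 for Dusp6 (-0.40 to 1.59). Without the 6 arrays, Dusp5 (4.09, adjusted p = 0.00159), Dusp7 (1.11, adjusted p = 0.0198), Dusp6, Dusp10 and Dusp1 were called. Leaving out HRas-v12 female early replicate 3 alone gave calls for Dusp5 (4.09, adjusted p = 0.0263), Dusp1 (-0.70, adjusted p = 0.0477) and Dusp10 (-1.01, adjusted p = 0.0493). Late, the difference was 2.03 for Dusp5 (95% interval 0.39 to 3.66) and 0.71 for Dusp7 (0.23 to 1.18). The late HRas-v12 change minus the MKK7D change was called by limma for 0 of the 10 genes, beside 0% of all genes and 1296 genes at an unadjusted p under 0.05. For Dusp8 that difference was -0.73 (SE 0.33, adjusted p = 0.461), and -1.46 (SE 0.33, adjusted p = 0.0355) without the 6 arrays, which leaves 1 late MKK7D control.

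The change of Dusp1 in early HRas-v12 hearts differed between the sexes, with a male minus female difference of -1.27 (SE 0.27, limma adjusted p = 0.0211). This was 1 call among 10 genes beside 1.1% of all genes. Male signals were 6301 to 8176 in HRas-v12 hearts, against 17295 to 22073 in control males, and female signals were 15560 and 20821, against 17454 to 22612 in control females. One of the female arrays is the low-Esr1 replicate 3, and without it the difference was -1.06 (adjusted p = 0.309). It was also not called without control male replicate 5 (-1.17, adjusted p = 0.0509) or male early replicate 1 (-1.24, adjusted p = 0.0601). Without female early replicate 1 instead, Dusp4 (4.27, adjusted p = 0.0152) and Dusp6 (2.04, adjusted p = 0.0349) were also called. Without the 6 arrays, late male minus female differences of Dusp5 (-5.70) and Dusp6 (-1.97) were called, with 1 male array left. With all arrays, limma called 0 of the 10 genes late between the sexes in HRas-v12 hearts, beside 0% of all genes and 988 at an unadjusted p under 0.05, and 0 in MKK3bE hearts, beside 0.00792%.

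For each array, the mean log2 difference from sex- and line-matched controls was taken over Dusp5, Dusp6 and Dusp7. The same mean over Dusp8, Dusp10 and Dusp16 was subtracted from it. This gave a balance of RNA signals, not a measure of phosphatase activity. In early HRas-v12 males this balance was 2.70 to 3.39 toward the ERK-preferring genes. In early HRas-v12 females it was 2.92 in replicate 1 and 0.24 in replicate 3. It was 1.33 to 2.41 in late HRas-v12 females, and 0.15, 2.03 and -0.91 in late male replicates 1, 3 and 4. MKK3bE arrays had -0.38 to 0.60, and MKK7D arrays -0.46 to 0.19. Controls spanned -0.37 to 0.34 in the shared group and -0.80 to 0.88 in the MKK7D line. The MKK3bE balance hides opposite moves within the ERK-preferring genes. In every MKK3bE array Dusp6 was above its control mean, by 0.31 to 0.86, and Dusp7 was below it, at -1.14 to -0.48. Early MKK7D hearts had means of 0.56 for the ERK-preferring and 0.54 for the p38- and JNK-preferring genes. By array the ERK-preferring mean was 0.23 to 0.74, overlapping its controls at -0.26 to 0.4. It came mostly from Dusp5 (1.46), with Dusp6 at 0.37 and Dusp7 at -0.155, none of them called. Dusp5 also weighed most in early HRas-v12 males, at 4.57 to 4.98, with Dusp6 at 1.79 to 2.05 and Dusp7 at 0.38 to 0.51. In late HRas-v12 male replicate 4 the dim Dusp5 again weighed most, at -1.9. Within the ERK-preferring genes Dusp5 and Dusp6 were called early in HRas-v12 hearts and Dusp7 was not, and the balance itself was not tested.

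**Figure D4:**
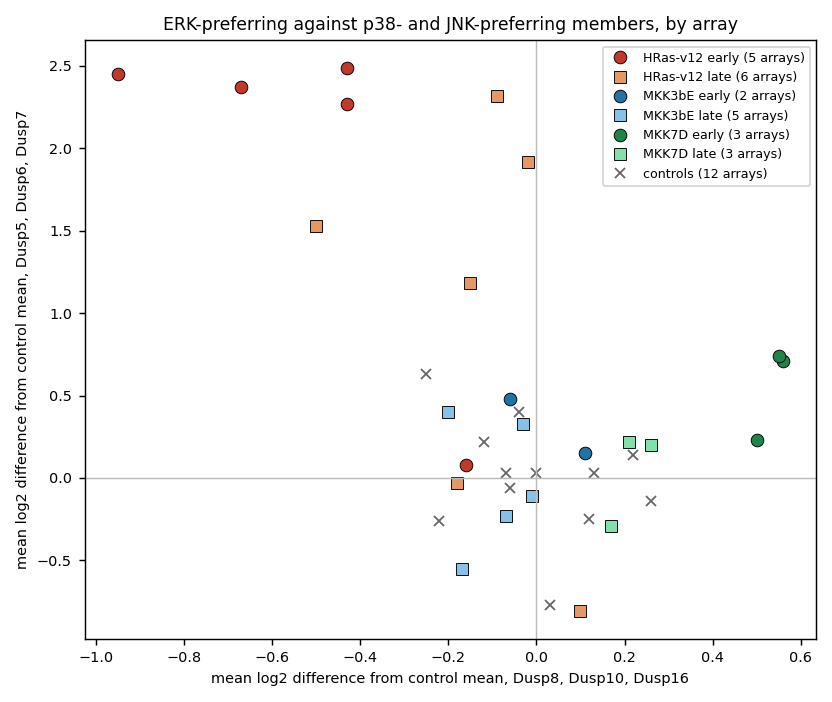
Each point is 1 array: the vertical axis is the mean log2 difference from the control mean of the same sex and line over Dusp5, Dusp6 and Dusp7, and the horizontal axis the same over Dusp8, Dusp10 and Dusp16. In 4 of 5 early HRas-v12 arrays the points lie at the upper left, the early MKK7D points lie to the right, and MKK3bE points lie among the controls. In the MKK3bE arrays higher Dusp6 and lower Dusp7 partly offset each other in the vertical mean.

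The genes whose log2 signals ran most like each phosphatase over all 36 arrays are given as a description. Dusp6 ran closest to Egr1, an immediate early transcription factor gene (Pearson r = 0.94), and to Klhl6 (0.94). Dusp5 ran closest to Spry4 and Gpc4 (0.86 each), Dusp4 to Cx3cl1 and Rasa3 (0.86 each). Dusp1 ran closest to Ccpg1 (0.88) and Klf15, a glucocorticoid-responsive factor gene of heart muscle (0.87). Dusp8 ran closest to Habp4 (0.89) and Mybpc2 (0.88), and Dusp16 to Foxj3 (0.87) and Rc3h1 (0.86). For Dusp10, Dusp7, Dusp2 and Dusp14 the nearest genes were Slc22a23 (0.77), Ankrd63 (0.75), Fbxl5 (0.68) and Lrrc42 (0.67). The arrays share group structure, the 6 arrays against their label and per-array scaling, all of which enter these coefficients.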

How the data were processed

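Left ventricle RNA was measured on 36 Affymetrix mouse arrays. The deposited values are probe set intensities on a linear scale, made by the authors with MAS5 per the submitters' processing notes, version not given in the sources used here. The mean signal without 2% of probe sets at each end was 2500.01 on every array, so 1 factor per array had been applied. Values were taken as log2(signal + 32). The upper 60% of probe sets by mean over all arrays, 27022 with a mean of 8.802 or more, were kept. Of the 45101 probe sets, 34958 had 1 gene symbol, 932 several and 9211 none, and only the first kind named genes. The 64 control probe sets were left out. A model with 13 group means (23 residual degrees of freedom) was fitted in limma 3.58.1 under R 4.3.3 with an intensity trend, and p-values were adjusted by Benjamini-Hochberg over 12626 genes in each of 16 comparisons. Changes in groups with both sexes weight the sexes equally. All adjusted p-values are limma's. The fit was tested on simulated data.

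The 10 members were always named. From each other list (ERK feedback and target genes, JNK and p38 target genes, MAP kinases, MAP kinase kinases, other phosphatases, and cell type markers) counts were given, with up to 4 called members of smallest adjusted p. Of the remaining marker lists, early HRas-v12 hearts had 0 of 4 atrial, 0 of 2 T and B cell, and 0 of 3 neutrophil markers called, and 2 smooth muscle markers higher and 1 lower of 6. The members and lists were chosen with earlier results of these data known. Alternatives were the offset, the filter, quantile normalization, only the groups compared, no trend, a replicate block, another probe set, the 6 arrays against their label left out, and each array left out in turn.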

Additional observations from a re-analysis of the deposited data

Results flagged for a closer look

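In 4 places a phosphatase gene changed differently in a pair of groups by a direct test in limma. Dusp1 differed between times in HRas-v12 hearts, by 0.86 on the log2 scale late against early, averaged over the sexes. Males had 15135 to 21724 late and 6301 to 8176 early, and females 21889 to 28315 late and 15560 and 20821 early. No control entered that comparison. Dusp1 and Dusp8 changed differently in the HRas-v12 and MKK7D lines early, by -0.88 and -1.80. The Dusp1 change in early HRas-v12 hearts differed between males and females by -1.27. The last rests on 2 female arrays, of which replicate 3 had a low Esr1 signal, and was -1.06 (adjusted p = 0.309) without it.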

How the results depend on the processing

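Of the single-gene calls under the alternatives and left-out arrays, 217 kept their side of the threshold, 37 lost it and 1 changed sign: the dim second probe set of Dusp16 gave 0.81 in early HRas-v12 hearts. Counts of the 10 genes called stayed within 1.5 times the main count in 300 settings and moved in 50. Without the 6 arrays against their label, the counts were 0 in late HRas-v12 (2 with all arrays), 2 in early and 2 in late MKK3bE (0 and 0), 1 in late MKK7D (0), 4 for HRas-v12 late against early (1), 5 for HRas-v12 minus MKK3bE early (0), 4 and 1 for HRas-v12 minus MKK7D early and late (2 and 0), and 0 and 2 for the sex difference in early and late HRas-v12 (1 and 0). Fitting only the groups compared gave 0 in late HRas-v12, 1 in early and 2 in late MKK3bE, 1 in early MKK7D and 0 for the early HRas-v12 sex difference. Late HRas-v12 had 1 without a filter and 1 with the upper 40% of probe sets. Late MKK3bE had 1 with the upper 40% and 1 with quantile normalization. The second brightest probe sets gave 2 in early and 1 in late MKK3bE, 1 and 1 for HRas-v12 minus MKK3bE early and late, and 1 for HRas-v12 minus MKK7D early. The causes were not tested.

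Leaving out each array in turn gave 3 to 6 calls in early HRas-v12, 0 to 3 in late HRas-v12, 0 to 1 in late MKK3bE and in early MKK7D, 1 to 4 for HRas-v12 late against early, 0 to 3 for HRas-v12 minus MKK3bE early, 1 to 4 for HRas-v12 minus MKK7D early and 0 to 3 for the sex difference in early HRas-v12. The other 8 comparisons kept 0. Nothing pairs arrays of the same replicate number: their deviations from the group means correlated at -0.34 to 0.13 over 23 pairs, and those of other numbers at -0.40 to 0.40 over 88. With the replicate block, the early HRas-v12 sex difference had 0 calls (Dusp1 -1.11, adjusted p = 0.122), and late HRas-v12 had Dusp5 and Dusp6 called in place of Dusp4 and Dusp6. Early HRas-v12 kept the same 5 genes with the block. The comparisons within the MKK7D line share no replicate numbers, so no block was fitted there. Signals near the filter, such as Dusp14, limit what these arrays can show.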
